A study of Glycine max with 12 samples.

Results

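The effect of *GmMYB21a* overexpression in heated soybean flower buds was examined across all genes of the deposited count table. Of the 12 RNA-seq libraries in the series, 6 entered this comparison by their titles: 3 of the line *GmMYB21a-OE2* and 3 of its recipient TL1, all under high temperature (HT). TL1 is the soybean cultivar Tianlong No. 1, a restorer line for hybrids based on cytoplasmic male sterility. *GmMYB21a-OE2* was made in TL1 with the vector pTF101.1 and carries additional copies of the *GmMYB21a* coding sequence. It is 1 line, so effects of *GmMYB21a* and of any other feature of this line cannot be told apart, and the promoter of the transgene is not given in the sources used here. HT was 40 °C by day and 34 °C by night, applied for 5 days in the general methods, and normal temperature (NT) was 28 °C by day and 22 °C by night. The other 6 libraries, 3 of each line at NT, were used only to set the line effect at NT beside that at HT. GEO's treatment field gives high temperature even for the libraries titled NT, and the titles were followed. Buds were taken from all heights of the plant (upper, middle and lower), and each group had 3 independent biological replicates. In such bulk samples, fewer cells of a type and less RNA per cell cannot be told apart.

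MYB21-type factors are R2R3-MYB proteins of the flower. In Arabidopsis, MYB21 acts with MYB24 downstream of jasmonate in stamen filament growth and pollen maturation. The tapetum, the innermost layer of the anther wall, feeds the developing pollen, dissolves the callose around the tetrads and supplies the precursors of sporopollenin, the polymer of the outer pollen wall. Mature pollen in turn stores transcripts for tube growth, among them those of pectin-modifying enzymes, arabinogalactan proteins and parts of the secretory machinery.

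The primers used to build the overexpression construct show what it carries. They are printed here, without their vector tails, because they span the coding sequence from its start codon (capitals in the forward primer) to its stop codon (capitals in the reverse primer, which has the complement), so reads from the transgene and from the endogenous gene fall on the same gene model and are counted together.
*GmMYB21a* forward primer, 22 bases: ATGgacaaaaaaccatgcgact
*GmMYB21a* reverse primer, 28 bases: TTAatctccattgagtaattgcatagac

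*GmMYB21a* (Glyma.19G006500, on chromosome 19 by its identifier) stood at 1.13, 0.818 and 0.909 CPM (counts scaled to library size) in the 3 TL1 libraries at HT. In *GmMYB21a-OE2* it stood at 12, 12 and 10.6 CPM. Every overexpression library was thus far above every TL1 library, as their labels state. The rise was 3.60 on the log2 scale (SE 0.16, 12.1-fold, adjusted p = 4.09e-09 by edgeR). At NT the same gene stood between 5.18 and 6.23 CPM in TL1 and between 37.3 and 40.5 CPM in *GmMYB21a-OE2*, a difference of 2.78 on the log2 scale.

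Total counts at HT ran from 33005026 to 39654590 per library. One of the 6 libraries stood apart: replicate 3 of *GmMYB21a-OE2* differed from the other replicates of its line by a chi-square of 14.8 and 11.7 per degree of freedom, against at most 4.82 between other replicates at HT. The counts of genes given for each gene group below are therefore also given without it where they moved.

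Compared to TL1, *GmMYB21a-OE2* had 996 differentially expressed genes (DEGs) among 41260 genes tested at HT (2.41%), with an adjusted p below 0.05 and at least a 2-fold change. Of these, 800 were higher (1.94% of genes tested) and 196 were lower (0.475%). Without replicate 3 of TL1, 129 genes were lower. The balance of directions depended on the fold threshold. Without it, 3040 genes were higher and 1527 lower, so that the lower share was 33.4% against 19.7% among DEGs. At a 4-fold threshold 185 genes were higher and 41 lower, and at an 8-fold threshold 54 were higher and 21 lower. The median log2 fold change of all genes tested was 0.0026. The libraries of both lines did not overlap in 992 of the DEGs, including all 196 lower ones, against 31% of all genes tested. The DEGs were chosen on these same libraries, which favours such a separation, so it adds no separate evidence.

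Direction also varied with the read level of the gene. When the tested genes were divided into 5 bins of 8252 genes by their mean CPM, the lowest bin (0.226 to 1.84 CPM) held 368 higher and 126 lower DEGs. The highest bin (31.7 to 8240 CPM) held 47 higher and 2 lower DEGs. Without the fold threshold, the highest bin held 499 higher and 665 lower genes, more lower than higher, whereas the bin beneath it held 669 higher and 316 lower. Nearly all abundant genes that were lower in *GmMYB21a-OE2* thus changed by less than 2-fold, with a median log2 fold change of -0.05 over that bin and of 0.13 over the lowest.

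**Figure D1:**
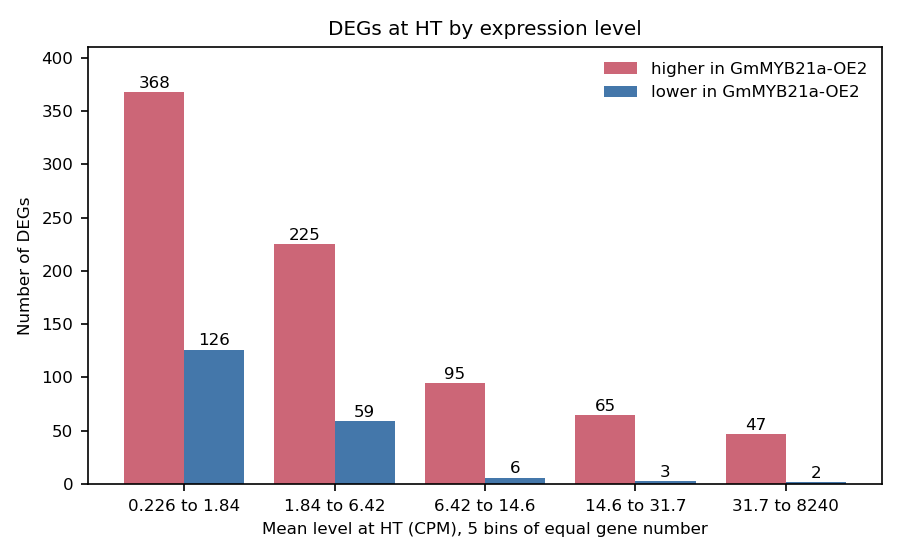
Number of DEGs at HT (y axis) that were higher or lower in GmMYB21a-OE2 than in TL1, in 5 bins of the tested genes by mean CPM (x axis). The count falls from 368 higher and 126 lower DEGs in the lowest bin to 47 higher and 2 lower DEGs in the highest.

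The strongly lower gene with the most reads was Glyma.13G098600 on chromosome 13, annotated as Villin-4, a protein that bundles actin filaments and acts in root hair growth in Arabidopsis. It stood at 110, 112 and 112 CPM in TL1 at HT and at 1.52, 1.57 and 1.78 CPM in *GmMYB21a-OE2*. The SD was 0.948 CPM in TL1 and 0.135 CPM in *GmMYB21a-OE2*, so the lines were far apart. Villin-4 fell by 6.09 on the log2 scale (SE 0.094, 68.2-fold, adjusted p = 2.73e-14 by edgeR), and at NT by 4.12. Its neighbours in identifier order differed by far less at HT. Glyma.13G098500 differed by -0.35 (adjusted p = 0.0322 by edgeR) and Glyma.13G098700 by -0.38 (adjusted p = 0.544 by edgeR) on the log2 scale.

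Glyma.06G243500, annotated as jasmonic acid-amido synthetase JAR1, was another lower gene with many reads. JAR1 joins jasmonic acid to isoleucine, which gives the active hormone, and in Arabidopsis this hormone releases MYB21 from its JAZ repressors. Its level was 20, 19.1 and 21.2 CPM in TL1 and 3.49, 2.62 and 3.29 CPM in *GmMYB21a-OE2* at HT. It fell by 2.68 on the log2 scale (SE 0.12, adjusted p = 4.66e-09 by edgeR), and at NT by 3.65. The decrease at HT was smaller than that at NT by 0.92 on the log2 scale (adjusted p = 0.00333 for the interaction of line and temperature by edgeR).

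Other annotated genes were lower in *GmMYB21a-OE2*, some of them to near 0. Glyma.02G069500, annotated as HEADING DATE 3A, a florigen of rice, stood at 1.13, 1.02 and 1.57 CPM in TL1 and at 0.166, 0 and 0 CPM in *GmMYB21a-OE2* (-4.46 on the log2 scale). It was also lower at NT, by 3.66. The dynamin-related protein 1C gene Glyma.05G069150, whose Arabidopsis counterpart acts at the plasma membrane of pollen, stood between 2.51 and 3.50 CPM in TL1 and between 0.166 and 0.398 CPM in *GmMYB21a-OE2* (-3.49 on the log2 scale). At NT it was below 0.5 CPM in both lines. DD_newGene_317, one of the loci that the count table calls new genes, is named after an uncharacterized mitochondrial protein. It stood between 32.2 and 36.0 CPM in TL1 and between 5.36 and 6.95 CPM in *GmMYB21a-OE2* (-2.51 on the log2 scale). At NT its libraries overlapped between the lines, with a difference of -0.09.

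Among the most abundant lower DEGs with an annotation, Glyma.11G144900, named after the rice senescence-specific cysteine protease SAG39, stood at 37.2, 37.2 and 42.4 CPM in TL1 and at 18.8, 18.4 and 17.8 CPM in *GmMYB21a-OE2*. It fell by 1.08 on the log2 scale at HT and differed by 0.32 the other way at NT. The tonoplast aquaporin gene TIP2-2 (Glyma.11G034000) stood between 11.1 and 15.9 CPM in TL1 and between 4.67 and 6.63 CPM in *GmMYB21a-OE2* (-1.17 on the log2 scale). Without replicate 2 of TL1 its difference was -0.98, short of the 2-fold threshold.

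**Figure D2:**
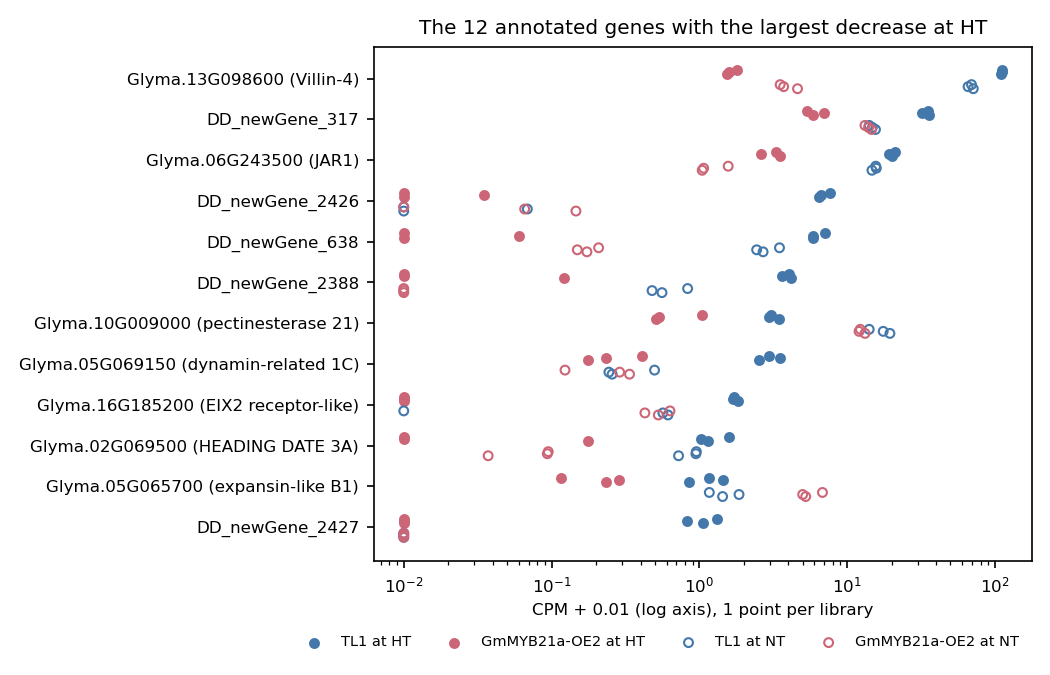
CPM + 0.01 (log axis) of the 12 annotated genes with the largest decrease in GmMYB21a-OE2 at HT, 1 point per library, filled at HT and open at NT. Only genes whose lines do not overlap at HT were eligible for these 12. At NT Villin-4 and JAR1 are apart in the same direction, DD_newGene_317 overlaps, and the expansin-like B1 gene is higher in GmMYB21a-OE2.

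Some genes had reads in only 1 line at HT, defined as at least 20 counts in every library of one line and at most 3 in every library of the other. Reads were seen in TL1 alone for 7 genes, of which 6 were new genes of the count table. DD_newGene_638, annotated as ABC transporter I family member 10, had 208 to 235 counts in TL1 and at most 2 in *GmMYB21a-OE2*, at least 79.2-fold lower against a floor of 3 counts per library. DD_newGene_2426, annotated as the probable methyltransferase PMT26, had 228 to 259 counts in TL1 and at most 1 in *GmMYB21a-OE2*, at least 87.0-fold lower. At NT these loci behaved differently from each other: DD_newGene_638 had 83 to 114 counts in TL1 and 5 to 7 in *GmMYB21a-OE2*, whereas DD_newGene_2426 had at most 5 counts in any library of either line.

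The only gene of this set outside the new genes was Glyma.16G185200, annotated as EIX2, a receptor-like protein that binds a fungal xylanase in tomato. It had 56 to 66 counts in TL1 at HT and 0 in the other line, at least 21.8-fold lower. At NT the lines were not separated, with 22, 19 and 0 counts in TL1 and 19, 15 and 22 in *GmMYB21a-OE2*. DD_newGene_2427, annotated as tyrosine-tRNA ligase 2, had 32 to 43 counts in TL1 at HT (at least 13.3-fold lower in the other line) and 0 counts in all 6 libraries at NT. The loci DD_newGene_2012, DD_newGene_1612 and DD_newGene_32, with no annotated name, were at least 60.3-fold, 11-fold and 10.5-fold lower. Conversely, *GmMYB21a-OE2* alone had reads of DD_newGene_2202, annotated as polyadenylation and cleavage factor homolog 4, with 53 to 55 counts against 0 in TL1 (at least 16.8-fold higher). It had 42 to 47 counts in *GmMYB21a-OE2* at NT as well, again against 0 in TL1. Glyma.11G197300, annotated as isoleucine N-monooxygenase 2, had 22 to 42 counts in *GmMYB21a-OE2* and at most 3 in TL1 at HT (at least 10.9-fold higher). At NT both lines had reads of it, 197 to 278 counts in TL1 and 460 to 485 in *GmMYB21a-OE2*. It was thus higher in *GmMYB21a-OE2* at NT as well, by 0.95 on the log2 scale.

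New genes took a larger share of the lower than of the higher DEGs. Of 778 new genes tested, 21 were higher and 17 lower (4.88% called), against 958 DEGs among 40482 genes with a Glyma identifier (2.37%). They were 8.67% of the lower DEGs, 2.62% of the higher DEGs, and 10 of the 21 genes that were at least 8-fold lower.

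Genes of pectin remodelling were lower in *GmMYB21a-OE2* at HT. This group and those that follow were drawn by words in the annotation names of the study's annotated DEG table, which was itself chosen on these HT libraries, so the HT counts describe those genes and are not independent evidence of a direction. A few genes belong to more than 1 group. For every group below, the HT background over all genes tested was 1.94% higher and 0.475% lower. Since members came from a table of DEGs at HT, counts far above this background were given by the choice. All 10 annotated genes of pectin enzymes were lower (background 0.475%), with a median log2 fold change of -1.29. Their summed level was 40 ± 2.79 CPM in TL1 and 16.2 ± 1.53 CPM in *GmMYB21a-OE2* (SD, n = 3), 2.47 times lower. At NT, in libraries outside that choice, 8 of the 10 were lower at an adjusted p below 0.05 by edgeR (background 4.86% lower). Their NT median was -0.40, with summed levels of 150.6 ± 5.64 CPM in TL1 and 118.0 ± 4.57 CPM in *GmMYB21a-OE2*. For all groups, the NT background is over all genes tested. Among DEGs at HT, 56 of 177 lower ones and 139 of 738 higher ones were lower at NT, and 44 of the higher ones were higher. Some of the 10 are neighbouring copies that may share reads, so they are not 10 separate observations.

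The probable pectinesterase/pectinesterase inhibitor 21 gene Glyma.10G009000, whose product removes methyl esters from pectin, stood at 3.47, 2.96 and 3.03 CPM in TL1 and at 0.499, 0.523 and 1.03 CPM in *GmMYB21a-OE2*. It fell by 2.20 on the log2 scale (SE 0.28, adjusted p = 0.000122 by edgeR), the largest decrease of the group. The pectinesterase gene PPME1 (Glyma.01G066000), whose Arabidopsis counterpart acts in the pollen tube, stood at 2.90, 2.45 and 3.15 CPM in TL1 and at 0.721, 1.22 and 1.01 CPM in *GmMYB21a-OE2* (-1.52 on the log2 scale). The pectinesterase inhibitor gene Glyma.15G141100, which acts against these enzymes, fell as well, by 1.72. The remaining members were a second PPME1, a second pectinesterase 21, a pectate lyase (Glyma.18G255900) and 4 polygalacturonases, which cut the pectin backbone, with decreases between 1.06 and 1.35 on the log2 scale.

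Of 15 annotated genes of the pollen tube and of tip growth, 14 were lower and 1 was higher at HT (background 0.475% and 1.94%), with a median log2 fold change of -1.31. Villin-4 carried most of the summed CPM. Without it, the other 14 genes summed to 34.6 ± 2.83 CPM in TL1 and to 15.6 ± 1.72 CPM in *GmMYB21a-OE2* at HT, 2.22 times lower, and to 137 ± 3.92 and 116 ± 5.79 CPM at NT. At NT 6 of the 15 were lower at an adjusted p below 0.05 by edgeR. The background was 4.86% over all genes tested, but 56 of the 177 lower DEGs tested at NT were lower there. The 6 include the 1 member that was higher at HT. These are genes of low read level, and the count of lower members depended on the libraries: it was 13 without replicate 3 of *GmMYB21a-OE2* and 7 without replicate 1 of TL1.

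Syntaxin-124 (Glyma.13G245800), a vesicle fusion protein, stood at 2.03, 1.56 and 1.39 CPM in TL1 and at 0.444, 0.598 and 0.398 CPM in *GmMYB21a-OE2* (-1.78 on the log2 scale). Arabinogalactan protein 41 (Glyma.13G041100), a cell surface proteoglycan, stood between 1.21 and 1.54 CPM in TL1 and between 0.345 and 0.548 CPM in *GmMYB21a-OE2* (-1.59). In both genes the lines were apart by more than their spread. The plasma membrane ATPase 8 gene (Glyma.15G207900), which pumps protons in Arabidopsis pollen, and the unc-13 homologs (Glyma.20G086400 and Glyma.10G136800) fell by between 1.10 and 1.14. The exception was ANXUR2 (Glyma.18G271500), a receptor-like kinase that keeps the pollen tube from bursting in Arabidopsis. It stood at 0.874, 0.562 and 0.545 CPM in TL1 and at 1.41, 1.79 and 1.94 CPM in *GmMYB21a-OE2*, a rise of 1.37 that lost its call without replicate 2 of TL1, and it fell by 1.37 at NT.

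Sugar supply genes went both ways, with 3 of 5 lower and 2 higher. The insoluble beta-fructofuranosidase gene Glyma.03G197400, a cell wall invertase, fell by 1.63 on the log2 scale, from between 1.55 and 1.64 CPM in TL1 to between 0.360 and 0.690 CPM. A second cell wall invertase (Glyma.15G024600) fell by 1.20. Sugar transport protein 10 (Glyma.09G284200) fell by 1.31, but this call was lost when replicate 1 or 3 of TL1 or replicate 2 of *GmMYB21a-OE2* was left out. SWEET15 (Glyma.08G183500), an exporter of sucrose, rose by 1.10, a call lost without replicate 3 of *GmMYB21a-OE2*. Sugar transport protein 14 (Glyma.05G228400) rose by 1.43, and its adjusted p by edgeR was 0.0531 without replicate 1 of TL1.

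In contrast, genes of the tapetum and of sporopollenin synthesis were higher in *GmMYB21a-OE2*. All 15 annotated members were higher at HT, also without replicate 3 of *GmMYB21a-OE2*. The median log2 fold change was 1.53 (background 1.94% higher). Their summed level was 52.8, 54.0 and 49.8 CPM in TL1 and 148, 134 and 179 CPM in *GmMYB21a-OE2*, 2.95 times higher and with no overlap. At NT the sums were 201 ± 26.3 CPM in TL1 and 190 ± 24.4 CPM in *GmMYB21a-OE2*, with a median log2 difference of -0.09 and 2 members lower (background 4.86%). The interaction of line and temperature passed an adjusted p of 0.05 by edgeR in 14 of the 15 genes, against 12.4% of all genes tested. Since the genes had been chosen for a change at HT, this choice favours an interaction.

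By role, the largest change was in Glyma.13G173200, annotated as the glucanase A6, which belongs to the enzymes that dissolve callose around the tetrads. It stood at 0.592, 0.690 and 0.606 CPM in TL1 and at 5.27, 3.96 and 8.01 CPM in *GmMYB21a-OE2*, a rise of 3.18 on the log2 scale (SE 0.28, adjusted p = 3.64e-06 by edgeR). At NT its difference was -0.02. Genes for enzymes of pollen wall synthesis were also higher. Glyma.18G076900, annotated as 4-coumarate-CoA ligase-like 1, which activates fatty acids, stood at 18.8 ± 0.56 CPM in TL1 and at 48.0 ± 7.43 CPM in *GmMYB21a-OE2* (SD, n = 3) and rose by 1.36. CYP704B1 (Glyma.07G043300), which hydroxylates fatty acids, stood between 0.576 and 0.767 CPM in TL1 and between 3.14 and 4.19 CPM in *GmMYB21a-OE2* and rose by 2.37.

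Fatty acyl-CoA reductase 2 (Glyma.02G169100), which makes the fatty alcohols of the pollen wall, stood at 0.113, 0.716 and 0.848 CPM in TL1 and at 3.46, 2.59 and 3.69 CPM in *GmMYB21a-OE2* (2.53 on the log2 scale). The type III polyketide synthases A (Glyma.01G073600) and B (Glyma.11G097900), which lengthen the activated fatty acids into polyketides, rose by 2.29 and 2.21. Synthase A had a mean of 3.53 ± 0.40 CPM in TL1 and of 17.4 ± 3.90 CPM in *GmMYB21a-OE2*. The transcription factor bHLH10 (Glyma.08G089100), which belongs to the tapetal regulators in Arabidopsis, rose by 1.42. The hydroxycinnamoyl spermidine transferase gene Glyma.17G061000, which makes a pollen coat polyamine, rose by 1.75, from 9.24 ± 0.36 to 31.0 ± 2.91 CPM. Thus genes of the tapetum were higher and genes of pectin and the pollen tube lower in the same libraries. With Villin-4 left out, the mean sums of these groups at HT were below those at NT in both lines.

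**Figure D3:**
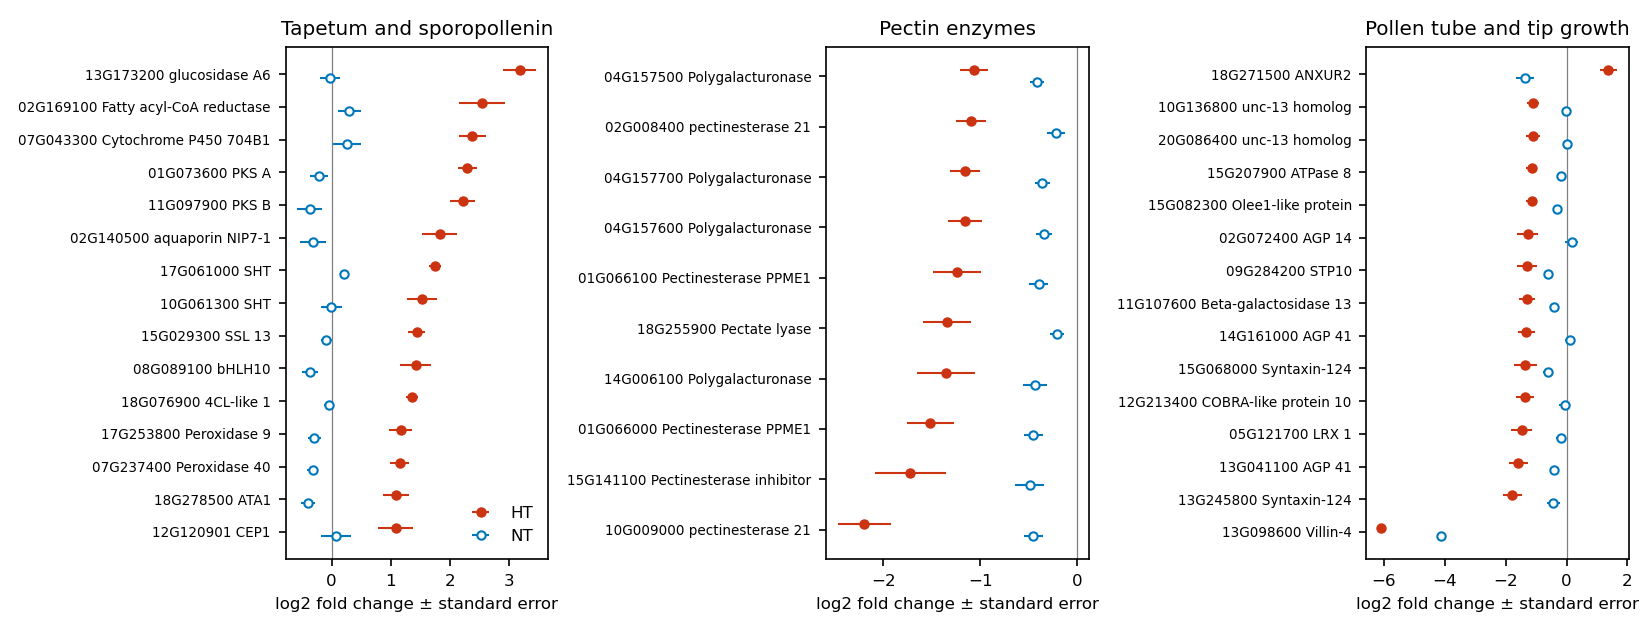
Log2 fold change of GmMYB21a-OE2 over TL1 at HT and at NT for the annotated genes of the tapetum and sporopollenin, of pectin enzymes and of the pollen tube and tip growth, with 1 gene per line of the plot and bars of 1 standard error. The 15 tapetum genes lie between 1.08 and 3.18 at HT and about 0 at NT, and the 10 pectin enzyme genes lie between -2.20 and -1.06 at HT and nearer to 0 at NT.

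Transcription factor genes of stress responses were higher in *GmMYB21a-OE2* at HT. All 20 annotated WRKY and ZAT genes, coding for WRKY factors and C2H2 zinc fingers that respond to wounding, pathogens and abiotic stress, were higher at HT, with a median log2 fold change of 1.78. Without replicate 3 of *GmMYB21a-OE2*, 17 were called. Their summed level was 159 ± 9.0 CPM in TL1 and 515 ± 72.0 CPM in *GmMYB21a-OE2*. At NT the direction was the other way: 13 of 19 tested members were lower at an adjusted p below 0.05 by edgeR and 1 was higher (background 4.86% and 5.97%), with a median of -0.77.

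The WRKY53 genes Glyma.08G021900 and Glyma.05G215900, whose Arabidopsis counterpart acts in leaf senescence, showed this most clearly. The former stood at 3.02, 2.63 and 3.67 CPM in TL1 and at 35.3, 33.5 and 45.2 CPM in *GmMYB21a-OE2* at HT, a rise of 3.62 (SE 0.14, adjusted p = 1.41e-09 by edgeR). At NT it stood at 19, 17.6 and 19.2 CPM in TL1 and at 7.82, 9.06 and 7.79 CPM in *GmMYB21a-OE2*, a decrease of 1.18 (adjusted p = 3.00e-09 by edgeR). The order of the lines was thus opposite at the 2 temperatures, with no overlap at either. The interaction was 4.75 on the log2 scale. Glyma.05G215900 rose by 3.37 at HT and fell by 1.48 at NT. The WRKY40 genes had the same order: Glyma.17G222500 rose by 1.77 at HT and fell by 1.62 at NT, and Glyma.17G222300 rose by 2.36 and fell by 1.31.

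ZAT11 (Glyma.03G173300), a zinc finger repressor, stood at 0.226, 0.613 and 0.636 CPM in TL1 and at 7.32, 7.22 and 5.75 CPM in *GmMYB21a-OE2* at HT, a rise of 3.77. ZAT10, a salt and drought responsive repressor, was represented by 4 genes that rose by between 1.12 and 2.52. Of these, Glyma.14G088300 was also higher at NT, by 0.54, and was the only WRKY or ZAT gene with that direction at NT.

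Of 22 annotated AP2/ERF genes, 21 were higher at HT (20 without replicate 3 of *GmMYB21a-OE2*), with a median of 1.36. These factors bind ethylene- and dehydration-responsive promoter elements. A pair of ERF017 genes had the largest rises of the group. Glyma.13G112400 stood at 0.818, 0.971 and 0.787 CPM in TL1 and at 16.4, 16.3 and 18.5 CPM in *GmMYB21a-OE2*, 19.7-fold higher (4.30, SE 0.15, adjusted p = 5.91e-10 by edgeR). The other of the pair, Glyma.17G047300, rose by 5.28, and a further ERF017 gene, Glyma.09G072000, by 2.83, while at NT these 3 genes differed by -0.06, -0.19 and -0.06. The DREB1D gene Glyma.09G147200, a dehydration and cold response factor, rose by 3.85 from between 0.113 and 0.153 CPM in TL1. RAP2-4 (Glyma.14G171500) was the most covered, at 117, 118 and 118 CPM in TL1 and 276, 277 and 236 CPM in *GmMYB21a-OE2*, and rose by 1.16. Of 20 AP2/ERF members tested at NT, 0 were higher and 4 were lower (background 5.97% and 4.86%).

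Ubiquitin ligases with a U-box or RING domain, which mark proteins for degradation, were higher in 24 of 24 annotated genes (23 without replicate 3 of *GmMYB21a-OE2*), with a median of 1.60. The U-box protein 21 genes covered a wide range of changes. Glyma.18G042100 stood at 2.88, 2.20 and 2.79 CPM in TL1 and at 29.4, 26.2 and 28 CPM in *GmMYB21a-OE2*, a rise of 3.41 (SE 0.12, adjusted p = 5.97e-10 by edgeR). Glyma.02G242900, Glyma.11G214500 and Glyma.09G172100, with the same annotation, rose by 4.22, 3.05 and 1.55. The PUB22 gene Glyma.10G262600, a negative regulator of drought and immune responses in Arabidopsis, rose by 3.80, from at most 0.113 CPM in each TL1 library. The RDUF2 gene Glyma.12G060700, a RING ligase of drought responses, rose by 2.21, from a mean of 8.51 to 39.4 CPM. At NT 1 ligase of 23 tested was higher (Glyma.08G332300), near the background of 5.97%, and 4 were lower (background 4.86%).

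Calcium sensors and their partners were higher in 14 of 16 annotated genes (13 without replicate 3 of *GmMYB21a-OE2*, when 1 was lower). PBP1 (Glyma.13G283600), a calcium-binding protein that interacts with the kinase PINOID in Arabidopsis, stood at 2.59, 4.45 and 3.67 CPM in TL1 and at 30.8, 26.1 and 18 CPM in *GmMYB21a-OE2* (2.80 on the log2 scale). Both CML19 genes rose, Glyma.17G128900 by 3.09 and Glyma.04G136600 by 2.58. The calmodulin-binding protein 25 genes Glyma.19G125300 and Glyma.03G120700 rose by 1.55 and 1.57, from means of 40.8 and 39.3 CPM in TL1. The exceptions were kinases that did not pass: calcium-dependent protein kinase 28 (Glyma.14G159700) differed by -1.20 and CIPK5 (Glyma.13G228500) by -1.0. At NT 5 of the 16 genes were lower at an adjusted p below 0.05 by edgeR and 0 were higher (background 4.86% and 5.97%), with a median of -0.30.

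Immune receptors and defence proteins were the largest of the annotated groups, with 39 of 43 higher and 3 lower. The lower ones were the EIX2 gene Glyma.16G185200, thaumatin-like protein 1 (Glyma.02G047400, -1.30 on the log2 scale) and NDR1/HIN1-like protein 13 (Glyma.06G104900, -1.22). Another gene annotated as EIX2, Glyma.20G080700, went the other way: it rose by 1.09 at HT and fell by 1.17 at NT. Without replicate 3 of *GmMYB21a-OE2*, 34 were higher and 3 lower. BON1-associated protein 2 (Glyma.03G015800), an inhibitor of cell death in Arabidopsis, rose by 2.59 from between 0.0564 and 0.333 CPM in TL1 to between 0.832 and 1.64 CPM. Thaumatin-like protein 1a (Glyma.10G061800), a defence protein, rose by 2.09 at HT and by 1.0 at NT, and the neighbouring copies Glyma.10G060800 and Glyma.10G061000 were likewise higher at both temperatures. The RPM1 resistance gene Glyma.08G319300 rose by 1.43 at HT and by 2.22 at NT. In this group 5 of 42 genes were higher and 10 lower at NT at an adjusted p below 0.05 by edgeR (background 5.97% and 4.86%).

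Genes of the abscisic acid group were higher in all 10 annotated members, in every fit with 1 library left out, with a median of 1.34. Their summed levels were 113 ± 2.54 CPM in TL1 and 301 ± 26.3 CPM in *GmMYB21a-OE2*. The group was drawn by name and includes phosphatases of the 2C family. Only some members of that family restrain abscisic acid signalling, and whether these do was not tested. The protein phosphatase 2C 25 gene Glyma.14G195200 stood at 6.60, 6.67 and 7.39 CPM in TL1 and at 46.2, 49.3 and 48.1 CPM in *GmMYB21a-OE2*, a rise of 2.80 (SE 0.085, adjusted p = 1.81e-10 by edgeR). At NT it was lower by 0.40. Genes of synthesis and of removal of abscisic acid rose together. The NCED1 genes Glyma.15G250100 and Glyma.08G176300, coding for the dioxygenase that makes its precursor, rose by 1.13 and 1.34. The hydroxylase genes Glyma.01G153300 and Glyma.09G218600, which start its breakdown, rose by 1.33 and 1.40, and the glucosyltransferase gene Glyma.07G215500, which conjugates it, by 2.32. At NT 2 of the 10 differed, both phosphatases and both lower (background 4.86%).

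Genes of xyloglucan enzymes and expansins, which loosen or remodel the wall, were grouped with those of EXORDIUM proteins. Of these, 13 of 15 were higher (11 without replicate 3 of *GmMYB21a-OE2*). EXORDIUM-like 1 (Glyma.04G100300), linked to growth under carbon limitation in Arabidopsis, stood at 11.8, 11.2 and 9.45 CPM in TL1 and at 57.0, 55.7 and 79.2 CPM in *GmMYB21a-OE2* (2.56 on the log2 scale), and EXORDIUM (Glyma.02G208200), a brassinosteroid-responsive protein, rose by 2.06. The lower members were both expansin-like B1 genes. Glyma.05G065700 stood between 0.846 and 1.43 CPM in TL1 and between 0.106 and 0.274 CPM in *GmMYB21a-OE2* at HT, a decrease of 2.49, and was higher in *GmMYB21a-OE2* at NT by 1.94. Glyma.17G147500 fell by 1.53 at HT and was higher by 1.11 at NT. In these 2 genes the line effect had opposite signs at the 2 temperatures, in the reverse order to that of the WRKY genes.

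Heavy metal-associated isoprenylated proteins, small metal-binding proteins at membranes, were higher in all 9 annotated genes at HT, with a median of 1.35, and lower in 6 of 9 at NT at an adjusted p below 0.05 by edgeR (background 4.86%), with a median of -0.69. The HIPP39 genes Glyma.16G178100, Glyma.16G178400 and Glyma.16G178500 on chromosome 16 rose by 3.48, 2.76 and 1.40. The last of them stood at 12.2, 12.6 and 14 CPM in TL1 and at 41, 37.6 and 23.7 CPM in *GmMYB21a-OE2*, so that replicate 3 was the lowest of its line. Their reads may be shared among close copies.

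Flavonoid genes were higher in 10 of 10 annotated members (9 without replicate 3 of *GmMYB21a-OE2*), with a median of 1.72, of which 5 are chalcone synthases, the entry enzyme of the pathway. Isoflavone 2-hydroxylase (Glyma.09G048700) rose by 3.23, from between 0.0606 and 0.409 CPM in TL1 to between 2.27 and 3.06 CPM. The flavonoid sums were 10.9 ± 0.99 and 30.1 ± 1.77 CPM at HT, and 59.4 ± 3.12 and 46.1 ± 1.81 CPM at NT. Both lines thus had lower sums at HT, and *GmMYB21a-OE2* at HT stood between TL1 at HT and either line at NT. Chalcone synthase 7 (Glyma.01G228700) carried most of the NT sums, at 36.8 ± 1.99 CPM in TL1 and 25.5 ± 1.60 CPM in *GmMYB21a-OE2*. At NT 1 of the 10 members was lower and 0 were higher (background 4.86% and 5.97%). Not every member followed the sums: isoflavone 2-hydroxylase in *GmMYB21a-OE2* had a mean of 2.61 CPM at HT and 0.528 CPM at NT. The call of the isoflavone reductase homolog TP7 (Glyma.01G172700), a rise of 1.95, was lost without replicate 2 of *GmMYB21a-OE2*.

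SAUR and other auxin genes were split, with 8 of 13 higher and 5 lower (7 and 4 without replicate 3 of *GmMYB21a-OE2*). Those named 10A5 (Glyma.04G006800, 2.83 on the log2 scale) and SAUR36 (Glyma.03G029600, 1.76) led the higher ones, while 4 of the lower genes were named auxin-induced protein 6B. These early auxin response genes had few reads, and 5 were higher without replicate 1 of TL1, replicate 1 or replicate 2 of *GmMYB21a-OE2*, and 2 were lower without replicate 3 of TL1 or replicate 2 of *GmMYB21a-OE2* (3 without replicate 1 or 2 of TL1). The 6B gene Glyma.09G221800, which differed by -1.74, was called with all 6 libraries and lost the call in 4 of the 6 fits with 1 library left out.

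MYB and bHLH factors other than *GmMYB21a* were also called. Of the 18 genes in this group, *GmMYB21a* included, 17 were higher and 1 lower, and 11 were higher without replicate 1 or replicate 3 of TL1 (15 without replicate 3 of *GmMYB21a-OE2*). MYB36 (Glyma.01G004900), a regulator of the Casparian strip in Arabidopsis roots, rose by 1.89 and RAX2 (Glyma.13G141900), a regulator of axillary meristems, by 1.79. Both MYB26 genes (Glyma.07G008500 and Glyma.15G025500), whose Arabidopsis counterpart thickens the anther endothecium for dehiscence, rose by 1.16. The lower member was MYB63 (Glyma.20G047400), a lignin regulator, which fell by 1.52 at HT and by 1.71 at NT.

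**Figure D4:**
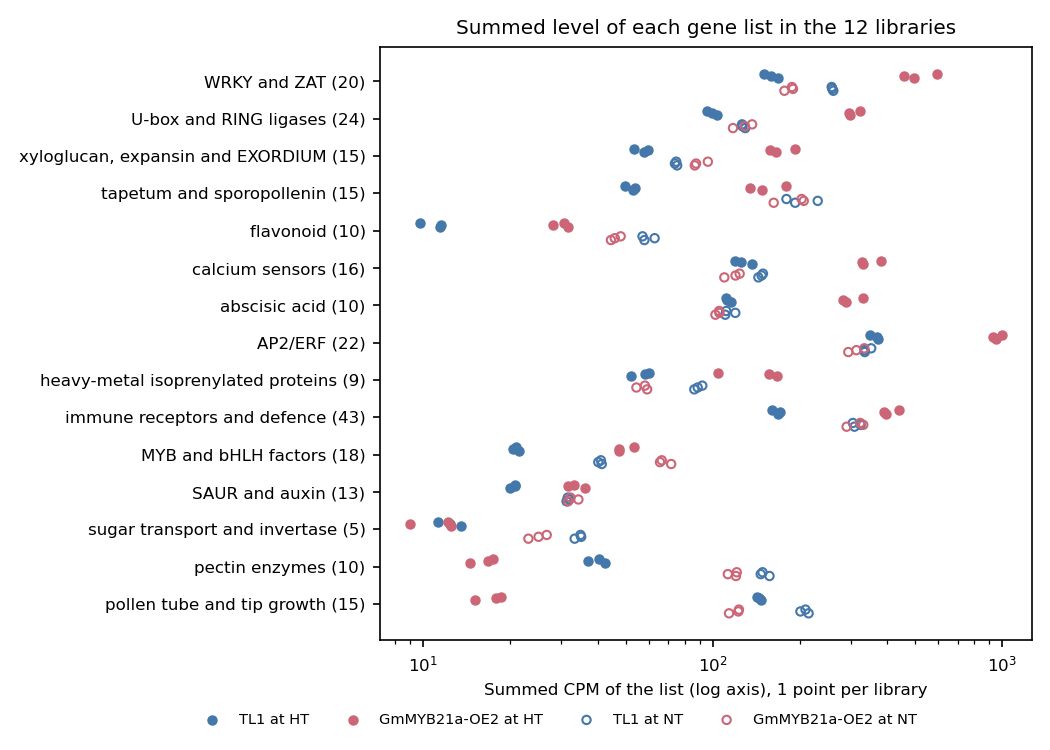
Summed CPM of the annotated gene groups in each of the 12 libraries (log axis), for TL1 and GmMYB21a-OE2 at HT and at NT. At HT the tapetum sum lies between 49.8 and 54.0 CPM in TL1 and between 134 and 179 CPM in GmMYB21a-OE2, while at NT the lines overlap.

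Some of the most abundant higher genes belonged to none of these groups. The CCCH zinc finger 29 gene Glyma.14G016300 stood at 68.0, 61.7 and 61.2 CPM in TL1 and at 291, 293 and 373 CPM in *GmMYB21a-OE2*, a rise of 2.33 (SE 0.097, adjusted p = 1.90e-09 by edgeR). Its copy Glyma.02G296600 rose by 2.48, and at NT these genes were lower by 0.59 and 0.71. The sieve element occlusion gene SEO-B (Glyma.20G204500), whose protein plugs injured phloem, stood at 87.5, 84.5 and 70.7 CPM in TL1 and at 234, 216 and 261 CPM in *GmMYB21a-OE2*. It rose by 1.55 at HT, and fell by 1.30 at NT, where TL1 stood between 509 and 548 CPM. The reticuline 7-O-methyltransferase homolog Glyma.12G109800 rose by 1.06, and by 0.97 without replicate 3 of *GmMYB21a-OE2*. TGA2.3 (Glyma.06G090900), a bZIP factor of salicylic acid responses in rice, rose by 3.69 from at most 0.182 CPM in each TL1 library. Among genes without an annotation, Glyma.14G212200 rose by 4.58. Glyma.03G204900 stood at 0, 0.0511 and 0 CPM in TL1 and at 0.693, 0.548 and 0.504 CPM in *GmMYB21a-OE2*, at least 6.92-fold higher against a floor of 3 counts per library.

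The line effect at NT was measured in libraries that share none with the HT comparison, and both the higher and the lower DEGs were more often lower than higher there. Of the 738 higher DEGs that were tested at NT, 44 were higher and 139 lower at an adjusted p below 0.05 by edgeR (background 5.97% and 4.86%), with a median log2 fold change of -0.18. Of the 177 lower DEGs tested, 56 were lower and 6 higher, with a median of -0.25. The interaction of line and temperature passed in 624 of 800 higher and 109 of 195 lower DEGs, against 12.4% of all genes tested. The DEGs had been chosen for a change at HT in libraries that also enter the interaction. This choice favours an interaction, so these shares are no separate evidence of one.

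The genes with the largest decreases at HT were mostly lower at NT as well. Among genes at least 8-fold lower at HT, 12 of the 14 tested at NT were lower there and 1 was higher, with a median of -4.10. Among those with a log2 decrease between 2 and 3, 7 of 17 were lower at NT, and between 1.5 and 2, 9 of 45 were lower and 3 higher. Among those with a log2 decrease between 1 and 1.5, 28 of 101 were lower, so the share was not graded below the largest decreases. Of 44 genes at least 8-fold higher at HT and tested at NT, 4 were higher and 11 lower there, with a median of -0.40.

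As DEGs (0.949% of the genes tested at NT), 20 genes were lower at both temperatures, Villin-4, JAR1 and HEADING DATE 3A among them, and 19 were higher at both, *GmMYB21a* among them. The unannotated pair Glyma.14G136300 and Glyma.14G136351 fell by 5.87 and 5.34 at HT and by 5.29 and 6.67 at NT. Opposite directions were found in 48 DEGs, of which 44 were higher at HT and lower at NT, the WRKY40, WRKY53 and SEO-B genes among them, and 4 were lower at HT and higher at NT. These 4 were both expansin-like B1 genes, the Laccase-7 gene Glyma.03G073776 (-1.69 at HT and 1.76 at NT) and DD_newGene_32.

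**Figure D5:**
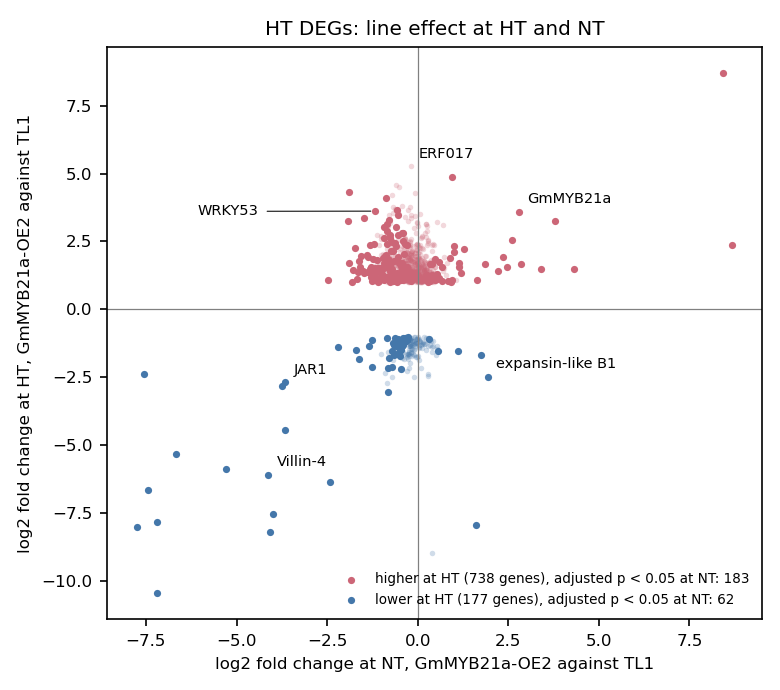
Log2 fold change of GmMYB21a-OE2 over TL1 at HT (y axis) against that at NT (x axis) for the 738 higher and 177 lower DEGs at HT that were tested at NT, 1 point per gene, with genes past an adjusted p of 0.05 at NT in darker colour. Most of the genes with the largest decrease at HT lie low on both axes, and the higher DEGs have a median of -0.18 at NT.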

How the data were processed

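Flower bud RNA of 3 libraries per line and temperature was sequenced. The authors deposited raw counts per gene as whole numbers, in a single table. StringTie 2.1.3b is named in the submitters' processing notes. The aligner, counting program, genome build and use of strand are not given in the sources used here, so close copies and overlapping genes may share reads. The table holds 53808 genes.

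The HT comparison was fitted to its 6 libraries, selected by title, with edgeR 4.0.16 in R 4.3.3: TMM library sizes, filterByExpr at default settings, and the quasi-likelihood test with line as the only term, with Benjamini-Hochberg adjustment over all genes tested. The study's thresholds defined DEGs: a log2 change of 1 or more in either direction, at an adjusted p below 0.05. NT was fitted likewise to its own 6 libraries, and the interaction of line and temperature to all 12, with no fold threshold. CPM of single genes are scaled within a temperature, and sums over gene groups on 1 scale for all 12 libraries. Standard errors are the log2 fold change over the square root of F. For genes with at most 3 counts in every library of a line, a bound against 3 counts per library replaces the fitted value. Bounds cover counting error only.

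Annotation names came from the 578 readable entries of the study's annotated DEG table (474 with a Swiss-Prot best hit, often of Arabidopsis), and cover 560 of the 996 DEGs. Chromosomes were read from the identifiers. The sequences are from the study's primer table. Named genes were *GmMYB21a*, the 12 lower and 10 higher annotated DEGs of largest change and non-overlapping libraries, the 5 most abundant of these in each direction, the 3 largest changes of each gene group, genes with reads in 1 line, and the 2 largest changes without annotation in each direction. Other group members, neighbouring genes and genes with opposite directions at NT were chosen after their values were seen. The members and lists were chosen with earlier results of these data known.

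Alternatives were RLE size factors, DESeq2 1.42.0, no low-count filter, all 12 libraries, genes with a Glyma identifier only, no fold threshold, an adjusted p below 0.01, a replicate block and leaving out each library. On simulated counts, 200 of 200 genes with a 4-fold change were recovered, with 8 false calls among 40895 genes. This does not show how many changes near the 2-fold threshold would be recovered. Tables and figures were made in Python 3.11.15 with pandas 2.3.3 and matplotlib 3.10.9.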

Additional observations from a re-analysis of the deposited data

Results flagged for a closer look

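The line effect differed between HT and NT in 59 of the 67 named genes, by edgeR's interaction of line and temperature at an adjusted p below 0.05, against 12.4% of all genes tested. Most named genes had been chosen for a large change at HT, and this choice favours an interaction. The values below are the log2 line effect at HT minus that at NT. *GmMYB21a* (Glyma.19G006500) differed by 0.77, with the larger effect at HT. JAR1 (Glyma.06G243500) differed by 0.92, its decrease being smaller at HT.

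Among genes lower at HT, the differences were -10.75 for DD_newGene_2426, -9.36 for EIX2 (Glyma.16G185200) and -4.19 for DD_newGene_638. In these genes all *GmMYB21a-OE2* libraries at HT had at most 3 counts, so the fitted values depend on the prior count and are no bound. The differences were -2.02 for Villin-4 (Glyma.13G098600), -3.13 for the dynamin-related protein gene Glyma.05G069150, -2.47 for DD_newGene_317 and -4.47 for the expansin-like B1 gene Glyma.05G065700. The pectin genes Glyma.10G009000, Glyma.15G141100 and Glyma.01G066000 had -1.80, -1.28 and -1.11. Syntaxin-124 (Glyma.13G245800), arabinogalactan protein 41 (Glyma.13G041100) and the invertase Glyma.03G197400 had -1.40, -1.24 and -1.34. SAG39 (Glyma.11G144900) and TIP2-2 (Glyma.11G034000) had -1.46 and -1.59.

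Among tapetum genes, the differences were 3.15 for A6 (Glyma.13G173200), 2.19 for fatty acyl-CoA reductase 2 (Glyma.02G169100) and 2.07 for CYP704B1 (Glyma.07G043300). The transcription factor genes had 5.42 and 4.31 for ERF017 (Glyma.17G047300, Glyma.13G112400), 4.38 for DREB1D (Glyma.09G147200), 1.26 for RAP2-4 (Glyma.14G171500), 4.75 and 4.80 for WRKY53 (Glyma.08G021900, Glyma.05G215900) and 4.40 for ZAT11 (Glyma.03G173300). They had 4.26 for TGA2.3 (Glyma.06G090900), 2.08 for MYB36 (Glyma.01G004900), 1.57 for RAX2 (Glyma.13G141900), and 2.86 and 3.14 for the CCCH genes Glyma.14G016300 and Glyma.02G296600.

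The ubiquitin ligases Glyma.02G242900, Glyma.18G042100 and Glyma.10G262600 had 4.89, 3.73 and 3.19. The calcium sensors Glyma.17G128900, Glyma.13G283600 and Glyma.04G136600 had 2.35, 3.18 and 2.91. EXORDIUM-like 1 (Glyma.04G100300) and EXORDIUM (Glyma.02G208200) had 2.24 and 2.40, and the defence genes Glyma.03G015800 and Glyma.10G061800 had 2.89 and 1.04. The flavonoid genes Glyma.09G048700, Glyma.13G302500 and Glyma.01G172700 had 2.65, 2.36 and 2.51. In the abscisic acid group, Glyma.14G195200, Glyma.07G215500 and Glyma.02G228200 had 3.15, 2.59 and 2.09. The HIPP39 genes Glyma.16G178100, Glyma.16G178400 and Glyma.16G178500 had 4.21, 3.24 and 2.11.

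The auxin genes Glyma.04G006800 and Glyma.03G029600 had 3.22 and 1.84. Sugar transport protein 14 (Glyma.05G228400) had 1.37, SEO-B (Glyma.20G204500) had 2.80, the methyltransferase homolog Glyma.12G109800 had 0.67, and the unannotated gene Glyma.14G212200 had 5.13. Isoleucine N-monooxygenase 2 (Glyma.11G197300) had 3.87 and the unannotated gene Glyma.03G204900 had 5.54, but in these all TL1 libraries at HT had at most 3 counts, so the fitted values are no bound. For WRKY53, SEO-B and expansin-like B1 the lines did not overlap at either temperature, in opposite order.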

How the results depend on the processing

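The counts of DEGs kept within 1.5 times under RLE size factors (987), DESeq2 (970), no low-count filter (926) and Glyma identifiers only (961). The lower DEGs were the less stable side. Their number rose from 196 to 331 when all 12 libraries shared 1 fit, and was 109 at an adjusted p below 0.01. Without a fold threshold the counts were 4567 in all, 3040 higher and 1527 lower. Leaving out 1 library gave 775 to 1088 DEGs, 646 to 855 higher and 129 to 233 lower, the lowest without replicate 3 of TL1 and the highest without replicate 3 of *GmMYB21a-OE2*. *GmMYB21a* ranged from 3.49 to 3.74 on the log2 scale. The same-numbered libraries of the lines did not deviate together (r = -0.107, -0.0134 and -0.155), so the replicate numbers were not taken as pairs. With a replicate block 817 DEGs were called, 675 higher and 142 lower, and 59 named genes had an interaction with and without it. Of 67 named genes, 61 were called in all 6 fits with a library left out, 6 changed call under some alternative, and none of them reversed. Genes of the lowest read levels, which hold 494 of the 996 DEGs at up to 1.84 CPM, rest on few reads, and 3 libraries per line limit the precision of every value.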

Other observations

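Some DEGs lay beside each other in identifier order. Of 778 higher DEGs with a Glyma identifier, 91 (11.7%) were in 43 runs of neighbours with the same direction, and of 179 lower ones, 31 (17.3%) were in 13 runs. The longest higher run held 5 genes on chromosome 17, Glyma.17G065000 to Glyma.17G065400, of which 3 are annotated as xyloglucan endotransglucosylase/hydrolase 23, an enzyme that cuts and rejoins xyloglucan. They differed by 1.31 to 3.82 on the log2 scale at HT and by -0.44 to 0.22 at NT. The longest lower run held 4 genes on chromosome 12, Glyma.12G034800 to Glyma.12G035400, of which 2 are annotated as auxin-induced protein 6B, with -2.48 to -1.43 at HT. The polygalacturonases Glyma.04G157500, Glyma.04G157600 and Glyma.04G157700 formed another lower run (-1.16 to -1.06). Close copies in such runs may share reads, and their part in these values was not tested. The lower DEGs made up 0.241% to 0.712% of the genes tested on each chromosome, and the higher ones 1.40% to 2.68%.

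The genes beside *GmMYB21a* in identifier order differed by little. Glyma.19G006400 differed by -0.40 (adjusted p = 0.00465 by edgeR) and Glyma.19G006600 by 0.41 (adjusted p = 0.0027 by edgeR) on the log2 scale at HT, both short of the 2-fold threshold. The unannotated pair Glyma.14G136300 and Glyma.14G136351, lower at both temperatures, had as nearest tested neighbours Glyma.14G135900 with -0.10 and Glyma.14G136600 with -0.07.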
